A study of Mus musculus with 6 samples.

Results

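Genes of the choroid plexus and of the ependyma were followed in the hippocampus of wild-type mice and of mice lacking inhibitor-1. The set was 32 genes fixed by name, with earlier results of these data known. It was grouped here as 28 genes of the choroid plexus epithelium and 4 of ependymal cells. Every probe set that the platform annotation assigned to exactly 1 of these symbols was taken. By that rule 30 of the 32 genes had at least 1 probe set, 53 in all, of the 45101 on the array, and 18194 genes had such a probe set in the whole series. Enpp2, a secreted lysophospholipase, and Prlr, the prolactin receptor, were not matched and were not analysed here. Of the 30 genes, 28 passed the filter on dim probe sets, of 12493 genes that passed in all. Tmem72 and Lmx1a did not pass. A gene is represented below by its probe set of highest mean.

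The choroid plexus is a fringe of vascular tissue in the brain ventricles whose epithelium makes cerebrospinal fluid. Its cells move ions and water through apical and basolateral transporters, seal the blood to fluid border with leaky tight junctions, and secrete carriers such as transthyretin into the fluid. Ependymal cells line the ventricle walls and beat motile cilia, whose genes are switched on by Foxj1. The hippocampus borders the lateral ventricle, so both tissues lie next to it and are distinct from its neurons and glia.

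Total RNA of hippocampus was measured on 6 one-colour arrays, 3 from wild-type mice and 3 from inhibitor-1 knockout mice. Inhibitor-1, encoded by Ppp1r1a, restrains protein phosphatase 1. Strain, age, sex and the way the allele was made are not in the labels, which carry genotype, tissue and replicate number. Nothing says that the arrays of a group are of separate animals, so the p-values speak only for the spread among these samples, and that spread may be technical. Values are probe set intensities on a linear scale, and the trimmed mean was 2500 on all 6 arrays. The median intensity was lowest on replicate 1 of each group, at 574 in wild type and 542 in knockout, against 621 to 666 on the other 4 arrays. Ppp1r1a itself was at 9061, 8370 and 10345 in wild type and at 272.5, 248.5 and 347.2 in knockout (log2 change -4.93, SE 0.18, limma adjusted p = 3.58e-07), which goes with the labels. Camk2a of forebrain excitatory neurons ranged from 92973 to 114397 over the 6 arrays and Wfs1 of CA1 neurons from 11395 to 12861. Prox1 of dentate granule cells ranged from 1315 to 2626, with knockout replicate 2 the highest.

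Choroid plexus genes lay low on replicate 1 of both groups. Of them, 22 of the 24 that were tested had their lowest value of the group on replicate 1 in wild type and in knockout alike, against 13.4% of all tested genes. The genes were chosen with earlier results of these data known, so this share and those below are description only. The log2 change from wild type to knockout was above 0 for 23 of the 24, all but Ttr (-0.02, and 0.03 after quantile normalization), against 50.1% of all genes. It was also above 0 for all 15 meningeal and fibroblast genes and all 10 tested endothelial and mural genes. Without wild type replicate 1 the choroid plexus median was 0.20, and Aqp1, Steap1, Ace and Col9a3 were below 0 as well. Ratios of mean intensity ran from 0.98 to 1.67 with a median of 1.42. In limma 0 of the 24 passed, where 0.0111% of all probe sets did (3 of 26999, all lower in knockout). A count of 0 here or below therefore says little of the genes. The 4 ependymal genes did not share the low wild-type value, and their ratios ran from 0.877 to 1.13. Because this is bulk tissue, fewer cells of a type and less RNA per cell cannot be told apart.

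**Figure D1:**
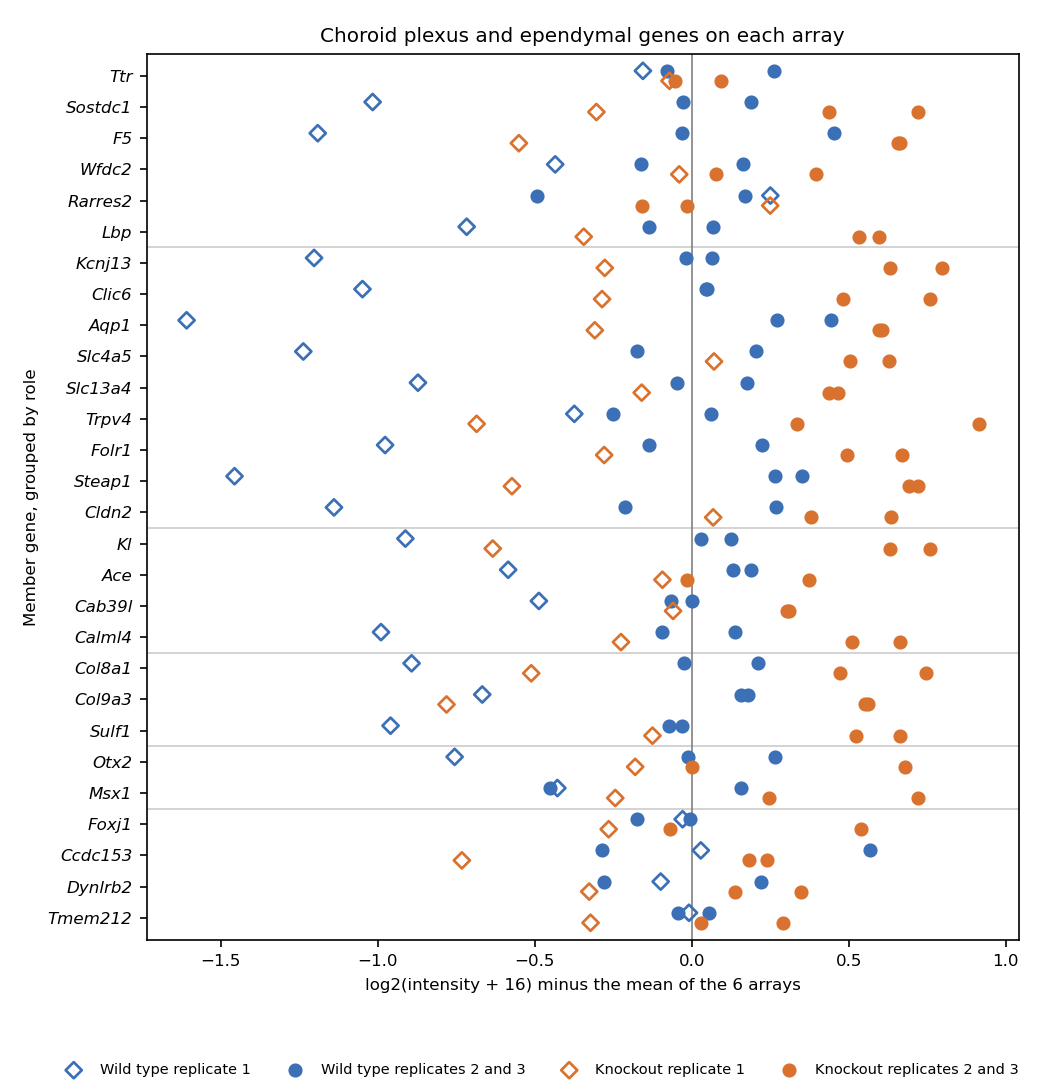
Each row is 1 tested gene and each point 1 array, as log2(intensity + 16) minus the gene's mean of the 6 arrays. Blue is wild type and orange knockout, and open diamonds are replicate 1. In 20 choroid plexus genes the wild-type diamond is the lowest point, and in the 4 ependymal genes at the bottom the knockout diamond is.

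Both markers of choroid plexus epithelium were present on all arrays. Ttr encodes transthyretin, the thyroid hormone carrier of the cerebrospinal fluid. Its brightest probe set gave 181791, 191865 and 242763 in wild type replicates 1, 2 and 3 and 192773, 195292 and 216121 in knockout replicates 1, 2 and 3. The probe set ranked between place 1 and place 5 of all probe sets on each array. The groups overlapped fully, and the log2 change was -0.02 (SE 0.10, with a limma adjusted p of 0.998). The other 3 probe sets of Ttr ran from 120314 to 211274, and their log2 changes from 0.08 to 0.14. All 4 had replicate 1 as the lowest array of its group in both genotypes, with replicates 2 and 3 on average 1.20 to 1.40 times replicate 1 in wild type and 1.07 to 1.25 times in knockout. That step is smaller than in most of the genes below. Whether intensities near the top of the scale understate differences was not tested.

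Kcnj13, the second marker, encodes an inwardly rectifying potassium channel of the apical membrane. Its only probe set gave 3904, 8900 and 9424 in wild type replicates 1, 2 and 3 and 7429, 15660 and 13967 in knockout. Replicate 1 lay at less than the others in both groups, the other arrays averaging 2.35 times it in wild type and 1.99 times it in knockout. Knockout replicate 1 also lay below wild type replicates 2 and 3, so the groups overlapped through that 1 array. The means were 7409.7 ± 3047 (SD, n = 3) and 12352 ± 4347 (SD, n = 3), with a log2 difference of 0.77 ± 0.32 (SE; adjusted p = 0.988 in limma).

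**Figure D2:**
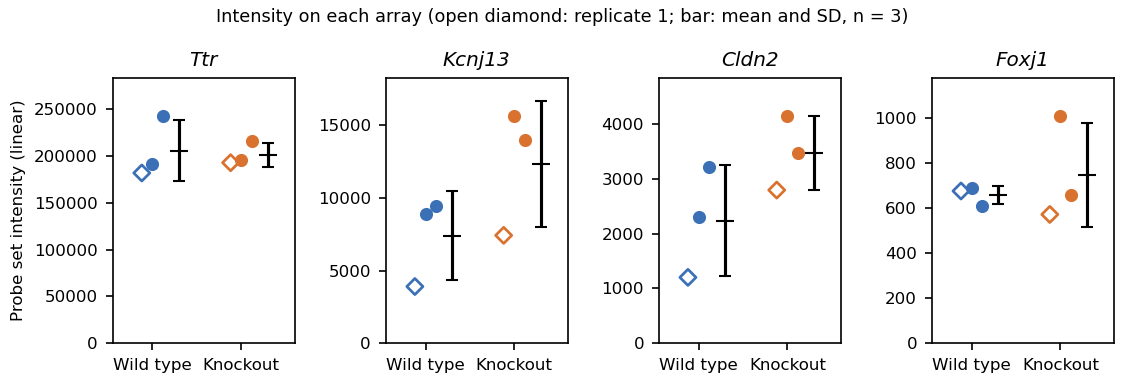
Intensity on a linear axis from 0 for Ttr, Kcnj13, Cldn2 and Foxj1, 1 point per array, with open diamonds for replicate 1 and bars for the mean and SD of 3 arrays. Kcnj13 and Cldn2 have the diamond lowest in both groups, Ttr lies between 181791 and 242763, and Foxj1 has its lowest array, 572.1, in knockout replicate 1.

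Cldn2 is the claudin that makes the epithelial tight junction permeable to cations. It gave 1201, 2297 and 3213 in wild type and 2794, 4148 and 3468 in knockout. Wild type replicate 1 stood lowest of all, and knockout replicate 1 fell between wild type replicates 2 and 3. The log2 change was 0.72 (SE 0.29, limma adjusted p = 0.988), and that of its dimmer probe set was 0.31. The 250 bases upstream of the RefSeq start sites (build GRCm38.p6) are shown for Kcnj13 on the minus strand at chr1:87394730-87394979 and for Cldn2 on the plus strand at chrX:139800558-139800807. Printed genes were chosen for a motif match or because the results turn on them. A link between upstream sequence and the array pattern was not tested. Capitals mark TATAAA, the TATA box letters, which begin 29 bases before the Kcnj13 start and 35 before that of Cldn2.
Kcnj13: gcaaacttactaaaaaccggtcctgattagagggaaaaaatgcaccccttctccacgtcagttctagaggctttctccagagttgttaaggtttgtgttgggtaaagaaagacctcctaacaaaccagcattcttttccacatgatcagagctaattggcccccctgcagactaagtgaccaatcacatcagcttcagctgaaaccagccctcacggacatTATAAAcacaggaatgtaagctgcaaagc
Cldn2: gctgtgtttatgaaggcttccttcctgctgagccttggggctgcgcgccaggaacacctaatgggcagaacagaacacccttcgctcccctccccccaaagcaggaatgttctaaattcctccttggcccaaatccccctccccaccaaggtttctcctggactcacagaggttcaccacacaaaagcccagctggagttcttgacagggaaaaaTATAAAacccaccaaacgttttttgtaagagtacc
Of the 32 genes, 22 had an upstream sequence in the RefSeq table, 19 of them choroid plexus genes. TATAAA, searched on both strands, lay upstream of 5 of those 19, which were Ace, Cldn2, Kcnj13, Otx2 and Slc4a5, against 14.3% of 27025 genes. It also lay upstream of 1 of the 3 ependymal genes with a sequence, Tmem212. TAATCC, the letters bound by OTX homeodomain proteins, lay upstream of 2 of the 19, Ace and Otx2, against 7.21% of genes. A gene counts here where any of its listed start sites has the letters. These are matches of letters and not binding sites.

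The other channels and transporters also had replicate 1 lowest in each group, while the order of the remaining arrays varied. Clic6, of the chloride intracellular channel family, gave 3701, 7937 and 7909 in wild type and 6291, 13003 and 10707 in knockout. Folr1, the folate receptor that carries folate into the cerebrospinal fluid, gave 3372, 6049 and 7773 against 5478, 9380 and 10593. In both genes knockout replicate 1 was above wild type replicate 1 and below the 2 other wild-type arrays. Their log2 changes were 0.64 (SE 0.30) and 0.59 (SE 0.29).

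Aqp1, the apical water channel, had the largest ratio of highest to lowest wild-type array among the tested members, 4.23, with 600.7, 2543 and 2251 against 1502, 2845 and 2825 in knockout. Replicates 2 and 3 averaged 3.99 times replicate 1 in wild type and 1.89 times in knockout. Its log2 change was 0.60 (SE 0.46), -0.06 without wild type replicate 1 alone, and 0.24 (SE 0.16) without replicate 1 of both groups, where both knockout arrays lay above both wild-type arrays. Steap1, a metalloreductase family member, was alike, at 543, 1826 and 1940 against 1015, 2509 and 2460. Its log2 change was 0.56 (SE 0.46), -0.03 without wild type replicate 1 alone, and 0.40 (SE 0.17) without replicate 1 of both groups, again with the later arrays apart.

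Slc4a5, a sodium bicarbonate cotransporter, gave 378.4, 1056 and 808 in wild type and 960.2, 1421 and 1302 in knockout. Only 1 wild-type value, that of replicate 2, lay above the lowest knockout value, and the log2 change of 0.80 (SE 0.35) was the largest among the tested members at their probe set of highest mean. Slc13a4, a sulfate transporter, gave 1994, 4140 and 3545 against 3277, 5058 and 4960, a log2 change of 0.49 (SE 0.25). Trpv4, a cation channel that senses cell swelling, differed in which replicate 1 was lower. It gave 344.5, 471.4 and 376.3 against 274.6, 864.3 and 573.1, so that the lowest of the 6 arrays was knockout replicate 1 (log2 change 0.38, SE 0.42). In all 9 genes of this role replicate 1 was the lowest array of both groups and the change was above 0. In limma 0 of them passed, against 0.0111% of all probe sets.

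Among secreted proteins the pattern held for 5 of 6 tested genes. Sostdc1, a secreted antagonist of BMP and Wnt signals, gave 1597, 3698 and 3185 in wild type and 2627, 4401 and 5362 in knockout (log2 change 0.57, SE 0.31). F5, coagulation factor V, gave 924.5, 2085 and 2923 against 1450, 3367 and 3381 (0.51, SE 0.40). Lbp, the lipopolysaccharide binding protein, gave 2264, 3911 and 3394 against 2936, 5401 and 5646 (0.52, SE 0.25). In these 3 genes both later knockout arrays exceeded every wild-type array. Wfdc2, a secreted protein with whey acidic protein domains, had smaller steps, at 961.3, 1165 and 1462 against 1269, 1723 and 1377 (0.29, SE 0.22).

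Rarres2 was the exception among secreted proteins. Its place with the choroid plexus genes rather than the ependymal genes was a choice made here and was not tested. It encodes chemerin, and gave 2296, 1364 and 2168 in wild type and 2295, 1724 and 1908 in knockout. Replicate 1 was the highest array of both groups here, as for 13.9% of all genes, and the same in both genotypes, with a log2 change of 0.05 (SE 0.21). Its second tested probe set had a change of 0.10, and replicate 1 was not the lowest of both groups there either.

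Among receptors, enzymes and other proteins of the epithelium, all 4 tested genes had replicate 1 lowest in both groups at their brightest probe set. Kl encodes klotho, the coreceptor for endocrine fibroblast growth factors. It gave 3198, 6578 and 6160 in wild type and 3881, 10203 and 9353 in knockout, with a log2 change of 0.50 (SE 0.34). Knockout replicate 1 was only 1.21 times wild type replicate 1, while the later arrays averaged 1.54 times theirs. Calml4, a calmodulin-like protein, gave 1770, 3882 and 3303 against 3017, 5601 and 5029 (0.63, SE 0.28).

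Cab39l, a scaffold of STE20-type kinases, had narrower steps and smaller error. It gave 4603, 6456 and 6168 against 6195, 8003 and 7963, a log2 change of 0.37 (SE 0.14). At its other tested probe set replicate 1 was lowest in wild type only. Ace, the angiotensin converting enzyme, gave 1328, 2193 and 2280 against 1873, 2593 and 1977, and the groups overlapped on the later arrays too (0.18, SE 0.22). Its 2 probe sets differed in sign, the other having a change of -0.04 and its lowest wild-type value on replicate 3. Tmem72, a membrane protein, was too dim to be tested, at 84.85, 339.5 and 360.3 in wild type and 62.12, 368.7 and 431.8 in knockout. Replicate 1 was low in both groups there as well.

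The 3 matrix genes had replicate 1 lowest in both groups at their brightest probe set. Sulf1, which removes sulfate groups from heparan sulfate, gave 1381, 2567 and 2641 in wild type and 2474, 3889 and 4283 in knockout. The log2 change was 0.71 (SE 0.26, limma adjusted p = 0.988), and it was 1.15 (SE 0.36) at its dimmer probe set. Col8a1, a short-chain collagen, gave 806.5, 1483 and 1751 against 1055, 2101 and 2542 (0.47, SE 0.34). Col9a3, a collagen IX chain, gave 1620, 2881 and 2925 against 1496, 3789 and 3813 (0.22, SE 0.34). For Col9a3 the 2 low arrays were about level. The other tested probe set gave a change of 0.99 and had its lowest wild-type value on replicate 3. Its probe sets thus disagreed in size and in the order of arrays.

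Of 3 transcription factors of the epithelium, 2 were tested, and 1 of these had replicate 1 lowest in both groups. That was Otx2, which the choroid plexus needs to form and which gave 610, 1254 and 1032 in wild type and 916.4, 1674 and 1042 in knockout (log2 change 0.33, SE 0.31). Msx1, a homeobox factor of the dorsal midline, gave 987.3, 970.6 and 1487 against 1124, 1586 and 2207 (0.48, SE 0.27). Wild type replicates 1 and 2 were level for Msx1, which is the 1 other tested choroid plexus gene beside Rarres2 where replicate 1 was not the lowest in both groups. Lmx1a, a LIM homeobox factor of the roof plate, was too dim to be tested, at 36.31, 50.72 and 182.2 in wild type and 170.9, 128.3 and 468.7 in knockout. Replicate 1 was its lowest array in wild type, and the middle one in knockout.

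Ependymal genes had another order of arrays. Foxj1, the regulator of motile cilia, gave 676.3, 688.3 and 610.4 in wild type and 572.1, 1010 and 657.9 in knockout (log2 change 0.14, SE 0.29). Dynlrb2, a dynein light chain, gave 1767, 2207 and 1558 against 1507, 2414 and 2083 (0.11, SE 0.20). Ccdc153, a coiled-coil protein and marker of ependyma, gave 1387, 2021 and 1111 against 812.1, 1607 and 1546 (-0.21, SE 0.29). In these 3 genes wild type replicate 1 was the middle value of its group and knockout replicate 1 the lowest of all 6 arrays. Tmem212, a membrane protein, gave 1505, 1469 and 1572 against 1208, 1545 and 1857 (-0.001, SE 0.19), again with knockout replicate 1 the lowest. Over all tested genes, knockout replicate 1 was the lowest of the 6 arrays for 16.6%.

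Sequences upstream of 2 ependymal genes are shown as well, chosen by the same rule as Kcnj13 and Cldn2. Both lie on the plus strand of GRCm38.p6, Ccdc153 at chr9:44240427-44240676 and Dynlrb2 at chr8:116504765-116505014. Capitals mark GTTGCC, part of the X-box letters bound by RFX factors, which work with Foxj1 on cilia genes. They begin 152 bases before the Ccdc153 start and 51 before that of Dynlrb2.
Ccdc153: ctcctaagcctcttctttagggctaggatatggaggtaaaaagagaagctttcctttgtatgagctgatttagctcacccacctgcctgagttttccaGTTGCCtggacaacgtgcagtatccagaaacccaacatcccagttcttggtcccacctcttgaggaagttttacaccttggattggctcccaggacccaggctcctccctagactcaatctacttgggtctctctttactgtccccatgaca
Dynlrb2: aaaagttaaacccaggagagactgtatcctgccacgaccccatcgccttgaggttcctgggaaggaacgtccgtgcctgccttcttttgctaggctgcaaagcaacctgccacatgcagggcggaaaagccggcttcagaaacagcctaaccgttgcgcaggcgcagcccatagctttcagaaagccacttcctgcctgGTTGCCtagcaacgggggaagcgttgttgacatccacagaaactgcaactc
GTTGCC, searched on both strands, lay upstream of 2 of the 3 ependymal genes in the table and of 3 of the 19 choroid plexus genes (Aqp1, Otx2 and Steap1), against 11.8% of all genes. None of these letters is a measure of binding.

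With replicate 1 set apart, the size of its step could be read gene by gene. On the log2 scale replicates 2 and 3 exceeded replicate 1 by a median of 0.96 in wild type and 0.84 in knockout over the 24 tested choroid plexus genes, against 0.00 and -0.01 over all genes. The ependymal medians were 0.04 in wild type and 0.53 in knockout. In 15 of the 28 tested members the step was over 0.5 in both groups, against 1.73% of all genes. Replicate 1 was lowest of both groups for 17 choroid plexus genes after median scaling and after quantile normalization, against 3.8% and 11.1% of all genes, and Ace, Otx2, Trpv4, Ttr and Wfdc2 were those that no longer had it. Median scaling alone moved the step of all genes to -0.14 in wild type and -0.31 in knockout, and left the choroid plexus medians at 0.82 and 0.54.

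Levels on the later arrays and on replicate 1 were then compared between genotypes. Knockout replicate 1 was above wild type replicate 1 for 21 of 28 members, all of them choroid plexus genes, against 51.7% of all genes. This compares 1 array with 1 array and has no replicate check. The 7 others were Trpv4, Col9a3, Rarres2 and the 4 ependymal genes, whose ratios were 0.586 to 0.853. On replicates 2 and 3 alone, both knockout arrays exceeded both wild-type arrays for 19 of 28 members, against 20.7% of all genes. The 9 others were Ttr, Wfdc2, Rarres2, Ace, Otx2 and the 4 ependymal genes. Over these later arrays the ratio of choroid plexus genes had a median of 1.40 and ran from 0.947 for Ttr to 1.70 for Trpv4.

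**Figure D3:**
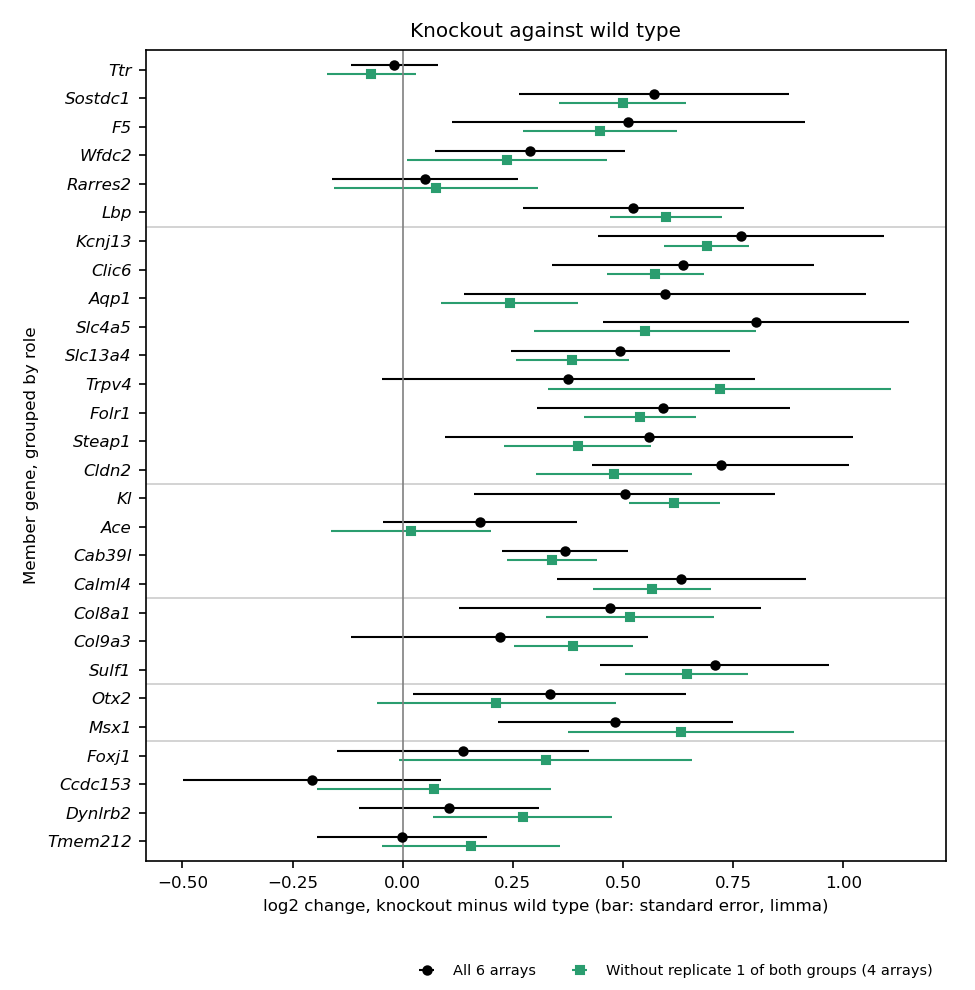
Points are the log2 change of each tested gene, knockout minus wild type, and bars its standard error from limma. Black circles use all 6 arrays and green squares leave out replicate 1 of both groups. Without replicate 1 Kcnj13 stands at 0.69 with an error of 0.10, and Ttr and Ace stay near 0.

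Over all 6 arrays, 0 of the 28 tested members passed an adjusted p under 0.05 in limma, where 0.0111% of all probe sets passed (3 of 26999, all lower in knockout). At an unadjusted p under 0.05, 6 members were higher and 0 lower, against 2.44% of all genes higher and 2.31% lower. These were Sulf1, Cab39l, Cldn2, Kcnj13, Slc4a5 and Calml4. At its probe set of highest mean, no member had all 3 knockout arrays above all 3 wild-type arrays, as 5.34% of all genes did. Dimmer tested probe sets of Col9a3 (log2 change 0.99, SE 0.33) and Msx1 (0.99, SE 0.42) did have that separation. The median log2 change was 0.51 over the 24 choroid plexus genes and 0.05 over the 4 ependymal genes, beside 0.00 over all genes. The choroid plexus median dropped to 0.20 when wild type replicate 1 was left out, and it was 0.85 with knockout replicate 1 left out instead. The median standard error was 0.29 for members and 0.18 over all tested probe sets.

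Without replicate 1 of both groups the choroid plexus median was 0.49, and the median standard error of the members was 0.17. The error was smaller than over all 6 arrays for 23 of the 28 members and larger for 5, Foxj1, Rarres2, Tmem212, Ttr and Wfdc2. Kcnj13 then passed, at a log2 difference of 0.69 ± 0.10 (SE; adjusted p = 0.0358 in limma), and was the 1 member that did, where 0.016% of genes (2 of 12493) passed as higher. The next lowest were Kl at 0.62 (SE 0.10, limma adjusted p = 0.0679) and Clic6 at 0.57 (SE 0.11, limma adjusted p = 0.110). At an unadjusted p under 0.05, 17 of 28 members were higher, against 5.41% of all genes. Those arrays were chosen for this comparison with their low choroid plexus values known, and the later arrays number 2 in each group.

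A list of 20 other choroid plexus genes gave a similar picture, with 18 tested. This list too was chosen with earlier results of these data known, so it is not independent support. Replicate 1 was lowest of both groups in 16, against 13.4% of all genes. The change was above 0 in 17, against 50.1% of all genes, and the median log2 change was 0.37. None of the 18 passed in limma, against 0.0111% of all probe sets. At an unadjusted p under 0.05, 5 were higher in knockout, against 2.44% of all genes. In 4, Perp, Cldn1, Slc16a8 and Slc4a10, knockout lay above wild type without overlap, against 5.34% of all genes. Slc4a10 differed little, at 30186, 30667 and 31574 in wild type and 32779, 31784 and 33528 in knockout (log2 change 0.09, SE 0.06). Perp, a desmosome protein, had the smallest p, at 872, 872 and 896 in wild type and 1223, 1784 and 1339 in knockout, without overlap (log2 change 0.69, SE 0.21). Cldn1, another claudin, gave 326, 716 and 566 against 782, 1138 and 995, also without overlap (0.89, SE 0.32). Kcne2, the potassium channel subunit of the epithelium, gave 891, 3087 and 2623 against 2031, 4859 and 3365, where knockout replicate 1 fell below the later wild-type arrays.

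Other genes of motile cilia were like the ependymal genes in their median change but not in every array. Of 24 listed, 16 were tested, 8 changed above 0 and 8 below, against 50.1% of all genes above 0, and the median was 0.00. In limma 0 passed, against 0.0111% of all probe sets, and 1 was higher at an unadjusted p under 0.05, against 2.44% of all genes. Knockout replicate 1 was the lowest of the 6 arrays for 10 of the 16, against 16.6% of all genes. Wild type replicate 1 was the lowest for 3, against 15% of all genes. Replicate 1 was lowest of both groups in 8 of the 16, against 0 of the 4 ependymal members and 13.4% of all genes. Pifo, a ciliary protein, had the smallest p, at 730, 844 and 781 against 974, 1149 and 1466 (log2 change 0.58, SE 0.23). Meig1 followed, at 975, 466 and 776 against 416, 483 and 513 (-0.58, SE 0.33).

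**Figure D4:**
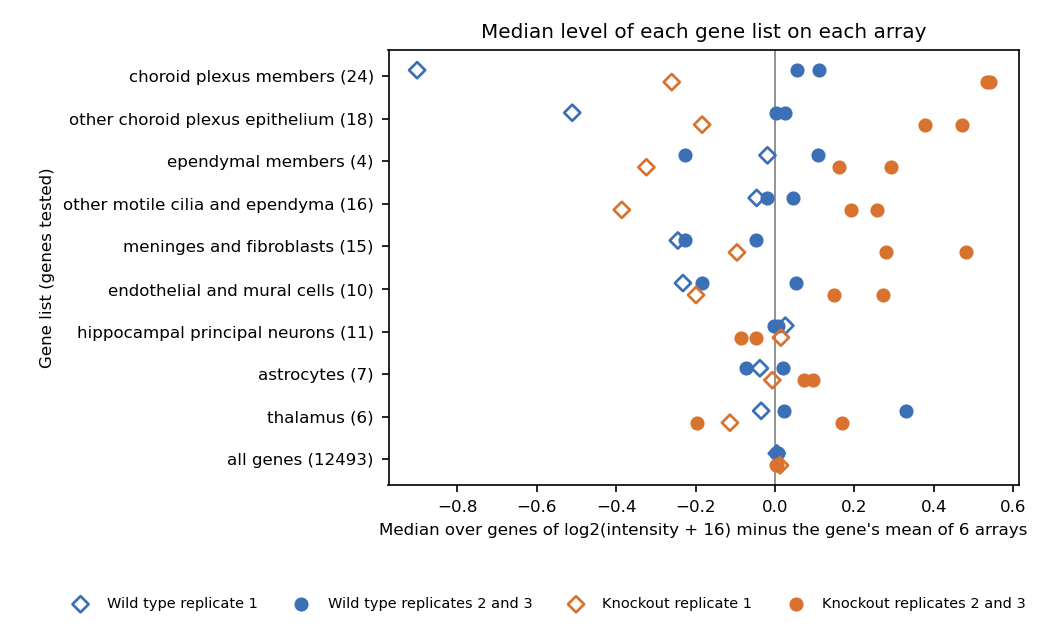
Points are, for each array, the median over the genes of a list of log2(intensity + 16) minus the gene's mean of 6 arrays, with open diamonds for replicate 1. Choroid plexus genes lie at -0.90 on wild type replicate 1 and -0.26 on knockout replicate 1, and lists of neurons and astrocytes lie between -0.09 and 0.10.

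Markers of other tissues moved in part with these genes, and their part in the differences was not tested. All 15 meningeal and fibroblast genes had a change above 0 (median 0.46), against 50.1% of all genes. At an unadjusted p under 0.05, 7 were higher, against 2.44% of all genes. In limma 0 passed, against 0.0111% of all probe sets. In 3 of the 15 knockout lay above wild type without overlap, against 5.34% of all genes. Summed over the list, intensity lay between 167510 and 182539 on wild-type arrays and between 178563 and 221620 on knockout arrays. Ptgds alone made up most of that sum on every array, at 120982, 127053 and 123886 against 124885, 143265 and 151311 (log2 change 0.17, SE 0.07). The sum therefore mainly follows that gene and says little of the rest of the list. Mgp, a matrix protein, gave 7718, 8133 and 6964 against 9336, 11976 and 11396, without overlap (log2 change 0.51, SE 0.11), and Col1a2, a fibrillar collagen chain, 1968, 2333 and 1740 against 2387, 3375 and 3058 (0.54, SE 0.17). The step from replicate 1 to the later arrays had a median of 0.03 in wild type and 0.42 in knockout in that list, against 0.96 and 0.84 in choroid plexus genes. Of 10 tested endothelial and mural genes all were above 0 with a median of 0.11, against 50.1% of all genes above 0. The smooth muscle genes Tagln (0.91, SE 0.38) and Acta2 (0.54, SE 0.29) led. At an unadjusted p under 0.05, 1 of the 10 was higher, against 2.44% of all genes. None of the 10 passed in limma, against 0.0111% of all probe sets. The sum over the 10 genes ran from 47311 to 53949 on wild-type and from 44588 to 64048 on knockout arrays. Alas2, the 1 tested red blood cell gene, was at 333, 663 and 533 against 974, 1099 and 780. No marker of any list was at 0 on any array.

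Lists of principal neuron and astrocyte markers were steadier over the arrays, with medians between -0.09 and 0.10 about each gene's mean of 6 arrays. For the thalamic list these medians ran from -0.20 on knockout replicate 2 to 0.33 on wild type replicate 2. Of 11 principal neuron genes 5 changed above 0 and 6 below (median -0.12), against 50.1% of all genes above 0. In limma 0 passed, against 0.0111% of all probe sets. At an unadjusted p under 0.05, where 2.31% of all genes were lower, 2 of the 11 were. These were Camk2a (-0.17, SE 0.07) and Neurod6, a factor of pyramidal neurons (-0.21, SE 0.09). The sum over that list lay between 179890 and 194090 on wild-type arrays and between 168302 and 176396 on knockout arrays. Camk2a made up most of it on every array, so it mainly restates that gene. Of 7 astrocyte genes 5 were above 0 (median 0.11), against 50.1% of all genes, with Slc1a3 at 0.14 (SE 0.07) and Gfap at -0.14 (SE 0.07). The astrocyte sum ran from 276362 to 291434 on wild-type and from 290444 to 298156 on knockout arrays, most of it from Aldoc and Slc1a2. The 6 thalamic genes had a median of -0.03, with Tcf7l2 at -0.51 (SE 0.33) and Prkcd at -0.15 (SE 0.19), and a sum from 15423 to 18817 on wild-type and from 14624 to 17632 on knockout arrays. Neither list had a gene at an unadjusted p under 0.05, where 2.44% of all genes were higher and 2.31% lower. Neither had 1 that passed in limma, against 0.0111% of all probe sets.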

How the data were processed

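Each of the 6 hippocampal samples was hybridised to 1 array. The deposited table holds a linear intensity per probe set, and how it was summarized from single probes is not stated in the labels or the table. Leaving out 2% at each end, the mean was 2500 on every array, so the values had been scaled before deposit. Values were taken as log2(intensity + 16), so folds of dim probe sets are understated. Of 45101 probe sets, the 64 controls and the 40% of lowest mean were left out, which left 26999. Knockout was set against wild type with limma 3.58.1 under R 4.3.3 (group as the only term, intensity trend, two-sided), adjusted by Benjamini-Hochberg over all 26999. Of the probe sets 34958 had 1 gene symbol and 932 several, and only the former are named. The fit was tested on simulated data with independent noise for each probe set and no shift shared by the genes of an array. That test therefore does not cover the replicate 1 pattern.

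Members and lists were chosen with earlier results of these data known. Members are all accounted for, by their probe set of highest mean. Of other lists the 2 genes of smallest p are named (Kcne2 was added after its values were seen). Ptgds, Slc16a8, Slc4a10, Aldoc, Slc1a2, Prox1 and Wfs1 are also named outside that rule. Of non-members the 10 genes with the largest step from replicate 1 in both groups are named. No list was tested. No detection calls were used here, and the number of arrays limits the precision. Upstream sequences are from RefSeq, build GRCm38.p6. Alternatives changed the pseudocount, the filter, the scaling, the variance trend or the array weights, added the replicate number as a block, left out arrays, or averaged all probe sets of a gene.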

Additional observations from a re-analysis of the deposited data

How the results depend on the processing

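No member passed in limma in the other pseudocounts, filters, scalings, array weights, the variance model without a trend, or leaving out any 1 array. Leaving out 1 array, the choroid plexus median ran from 0.20 to 0.85 and the ependymal median from -0.07 to 0.23, and probe sets passing as higher ran from 0 to 2 (2 without knockout replicate 1). Without replicate 1 of both groups, 7 probe sets were higher and 7 lower, and 1 member, Kcnj13, passed. Without an intensity trend 1 probe set was lower. With the replicate number as a block, 7 probe sets were higher and 4 lower, and 1 member passed, again Kcnj13 (limma adjusted p = 0.0174). No label pairs the samples: deviations of same-numbered arrays correlated at 0.24, 0.054 and 0.0998, while the closest partner of wild type replicate 3 was knockout replicate 2 (0.11). The cause of these changes was not tested. Of 500 comparisons of single members with an alternative, 498 kept their side of the threshold and 2 gained it, and 25 changed sign, in Ace, Aqp1, Ccdc153, Col9a3, Dynlrb2, Foxj1, Rarres2, Steap1, Tmem212 and Ttr, none of which passed.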

Other observations

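Genes outside the set were ranked by how far replicate 1 lay below the lower of replicates 2 and 3, taking the smaller step of both groups. Among all 12493 genes, 6 of the choroid plexus members were among the first 20 and 14 among the first 100, led by Steap1 at place 2 and F5 at place 5. The members were chosen with earlier results of these data known, so these places are description only. Outside the set the largest step belonged to Shmt1, a serine hydroxymethyltransferase of folate metabolism, at 235, 1151 and 1273 in wild type replicates 1, 2 and 3 and 461, 1512 and 1961 in knockout. Ecrg4, which encodes a secreted peptide precursor, was also among the first 10, at 4580, 10742 and 9901 against 7023, 14903 and 14562. Cox8b, a subunit of cytochrome c oxidase, gave 956, 2445 and 1826 against 1508, 3337 and 4458. St6galnac3, a sialyltransferase, gave 654, 1499 and 1637 against 1113, 3579 and 3026. The others were Tram2, Defb11, Baiap2l1, Ifi27l2b, Aldh16a1 and Dhrsx, and wild type replicate 1 was at most 490 in each of them. None of the 10 passed between genotypes in limma, where 0.0111% of all probe sets passed. Their log2 changes ran from -0.97 to 0.96, and St6galnac3 was the 1 with an unadjusted p under 0.05.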
